A study of Bos taurus with 21 samples.

Results

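The splicing factor families examined here were the genes whose symbols begin with HNRNP, SRSF, SF3A, SF3B, SNRP, LSM or PRPF. This rule, which uses names and no measured value, found 67 of the 13571 gene rows counted in milk somatic cells of 21 Holstein cows. The labels name no treatment or genetic change. They were classed as high yielding (HY, 9 cows) or low yielding (LY, 12 cows) by a national index of breeding value. The breeding value of milk yield, which has no unit in the labels, lay between 181 and 468 for HY cows and between -404 and 86.9 for LY cows, and parity between 2 and 4. The trait called lactation period lay between 41 and 268 in HY (median 168) and between 52 and 270 in LY (median 211.5). The labels give it no unit, and it is read here as days of lactation, after the study's methods. The sampling windows named in those methods do not hold all of its values. Each cow gave 1 library. All cows were of a single breed, and the cells were those shed into milk, not mammary tissue.

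Introns are removed from pre-mRNA by the spliceosome, which assembles from small nuclear RNA particles. In these particles, Sm proteins ring the U1, U2, U4 and U5 RNAs, while LSm proteins ring the U6 RNA. The SF3A and SF3B subunits belong to the U2 particle that marks the branch point, and PRPF proteins include parts of the particles that form the catalytic centre. SR proteins (SRSF) and hnRNP proteins bind the transcript itself and shift which splice sites are used. By these roles the members were 17 hnRNP proteins, 9 SR proteins, 9 SF3A and SF3B subunits, 8 Sm proteins, 4 proteins particular to the U1 or U2 particle, 6 proteins of the LSm ring of U6, 4 other LSm proteins and 10 PRPF factors. Some members act outside splicing. LSM1 belongs to a cytoplasmic ring in mRNA decay, LSM10 to the U7 particle that processes histone transcripts, and LSM14A to cytoplasmic mRNA granules. The ring of LSM1 shares LSm proteins with the ring of U6, so the role named after U6 is a label and not their only place.

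The libraries held 7887121 to 28578988 counts on genes (median 11841148). Milk protein genes took between 0.117% and 60.4% of these counts. HY 8 and HY 9 stood apart with 60.4% and 56.4%, and both had the lowest TMM scaling factors (0.460 and 0.499 of a range up to 1.48). Levels are given as CPM, the library's counts rescaled to a common total with these factors, and the main counts of members are also given without HY 8 and HY 9. The 5 leukocyte marker genes (PTPRC, CD53, LCP1, CORO1A and LAPTM5) were counted in every cow, as were all 7 milk protein genes, so immune cells and milk-producing epithelium both contributed RNA. Of 10 neutrophil markers, CXCR1 was at 0 in every cow. In such bulk RNA, fewer cells of a type and less RNA per cell cannot be told apart.

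All 67 members were counted in every cow. The lowest count was 6, for LSM12, and 66 members reached 10 counts in every cow. Mean counts ran from 78.0 (SNRPE) to 12160 (SF3B1), and the next lowest were LSM10, LSM12 and SRSF9. Together the members held between 0.357% (HY 8) and 1.48% of the counts on genes, with a median of 1.06%. Their summed level was 7763 CPM in HY 8, the lowest, and 11530 CPM in HY 3, the highest. Its median was 9863 CPM in HY and 9633 CPM in LY, and the ranges overlapped. Reads that aligned to several places were set aside by the counting, 21.6 to 27.5% of reads, so members with close copies elsewhere in the genome (for example HNRNPA1, HNRNPA3, HNRNPC, SNRPG, SNRPE, and SNRPN beside SNRPB) may be undercounted.

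The first question was whether the families as a whole rise with milk yield as HNRNPL and SF3B3 do. Most of them passed no test. Of 67 members, 4 rose with milk yield (SF3B3, HNRNPL, PRPF8 and HNRNPAB), 1 fell (SRSF7) and 62 passed no test in simple regression. Here rose and fell mean a slope with an unadjusted p under 0.05, the threshold the study used. Among all 12334 genes tested, 0.859% rose and 1.63% fell. HNRNPL and SF3B3 were picked out by the study on these same cows, so their slopes are a description and no independent evidence for the families. The study also measured HNRNPL by qRT-PCR, where it was significant in a t-test and in linear regression. SF3B3 was not among its qRT-PCR genes. No member passed an adjusted p of 0.1 (Benjamini-Hochberg over all genes), the adjusted p of each being 0.9998. By edgeR's quasi-likelihood test and by DESeq2 with the same trait, 0 members passed it either (lowest adjusted p in edgeR 0.6082). Slopes were positive for 41 of 67 members, with a median of 0.013 log2 CPM per 100 units of breeding value, beside -0.0004 over all genes. The same count was 0 rising and 0 falling when libraries were scaled by their total counts, where 0.114% of all genes rose and 2.38% fell. Without HY 8 and HY 9 it was 7 rising and 1 falling, beside 3.27% and 3.75% of all genes, and without LY 9 it was 7 rising.

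**Figure D1:**
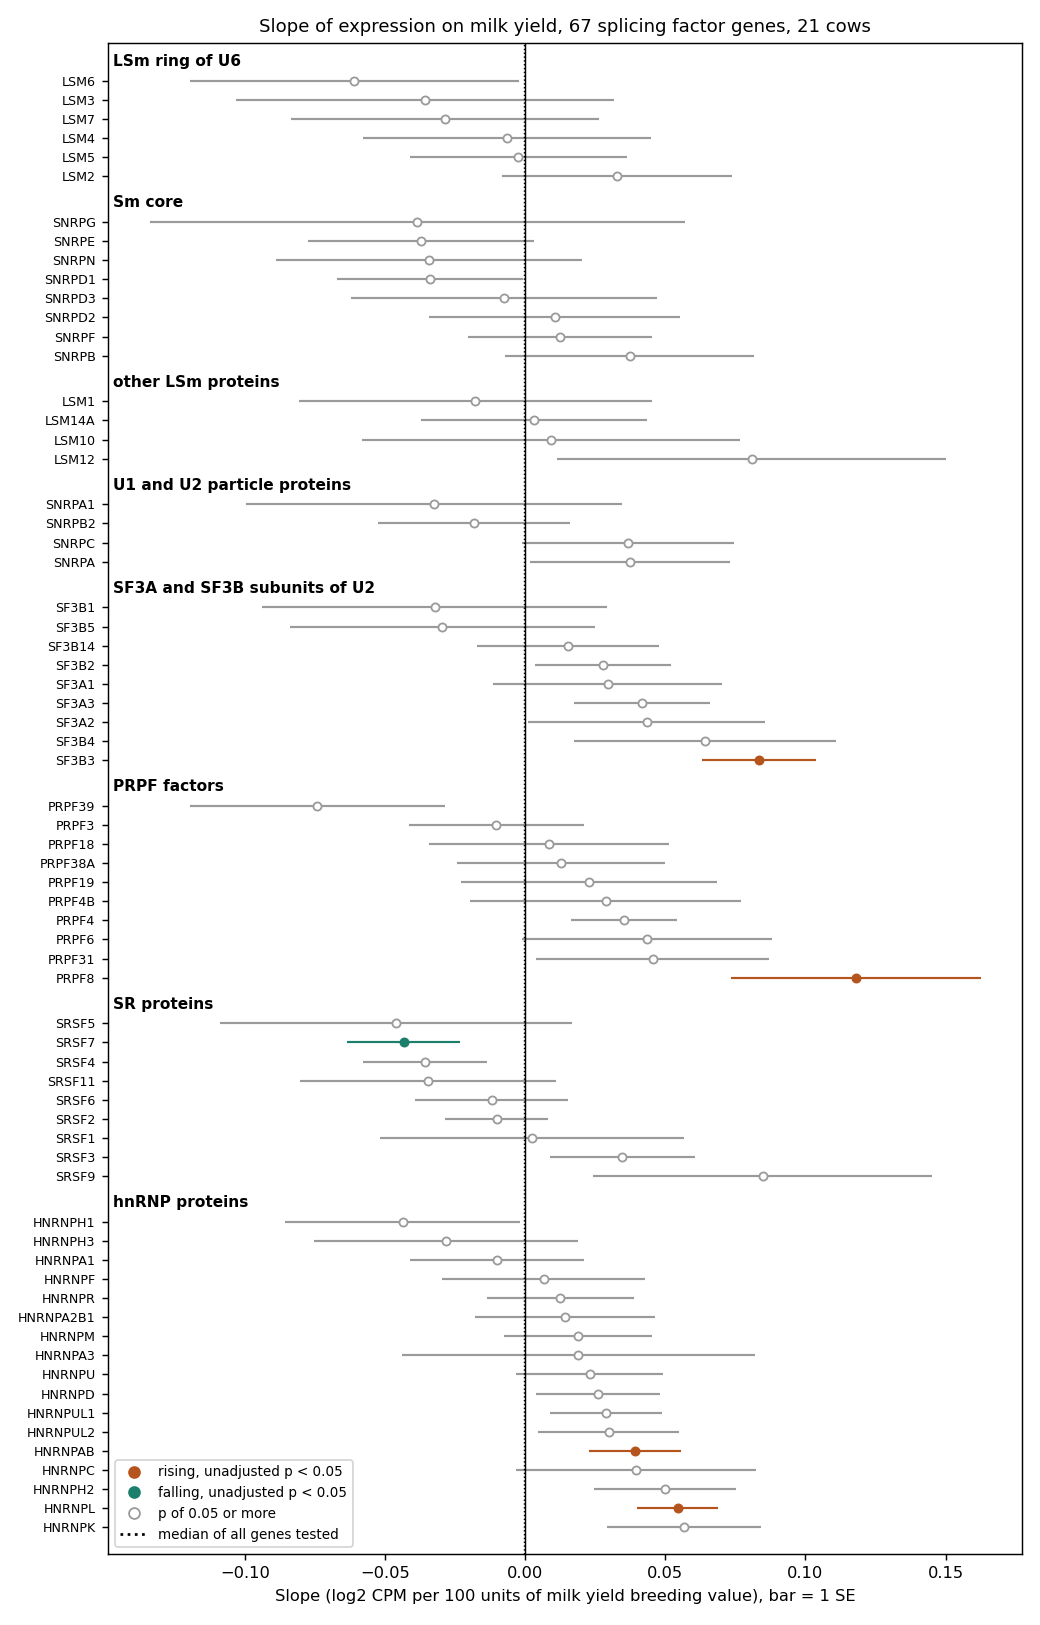
Slope of log2 CPM on the breeding value of milk yield for each of the 67 members, grouped by role, with bars of 1 SE (n = 21 cows). Filled points had an unadjusted p under 0.05: 4 rising (SF3B3, HNRNPL, PRPF8 and HNRNPAB) and SRSF7 falling, and the dotted line marks the median of all genes.

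HNRNPL, an hnRNP protein that binds CA-rich RNA and represses exons of the leukocyte gene PTPRC, was measured at 230 to 335 CPM in HY (median 275) and at 199 to 275 CPM in LY (median 220). Every HY cow lay above the LY median, but the ranges overlapped. Its slope was 0.054 ± 0.014 (SE, n = 21) log2 CPM per 100 units of breeding value (p = 0.00128, adjusted p = 0.9998), and it stayed under p = 0.0054 when any single cow was left out. Within the groups the slope passed no test. It was 0.019 ± 0.023 (SE) among the 12 LY cows and -0.0083 ± 0.053 among the 9 HY cows.

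SF3B3, a subunit of the SF3B complex, was measured at 134 to 248 CPM in HY (median 209) and at 115 to 188 CPM in LY (median 145). The 4 lowest HY cows (HY 8, HY 6, HY 9 and HY 7) lay within the LY range. Its slope was 0.083 ± 0.020 (SE, n = 21) log2 CPM per 100 units (p = 0.00064, adjusted p = 0.9998), and the highest p with a single cow left out was 0.0048. Within LY the slope was 0.070 ± 0.032 and within HY 0.14 ± 0.10, and neither passed the test. With total-count scaling the slopes of HNRNPL (0.039 ± 0.038) and SF3B3 (0.068 ± 0.053) kept their sign and passed no test. Without HY 8 and HY 9 both passed in that scaling too (0.070 ± 0.029 and 0.12 ± 0.035).

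PRPF8, the scaffold of the catalytic centre, had the steepest slope of all members at 0.12 ± 0.045 (SE, n = 21) log2 CPM per 100 units (p = 0.0160, adjusted p = 0.9998). It was measured at 204 to 541 CPM in HY (median 349) and at 91.4 to 434 CPM in LY (median 266). The lowest cow was LY 2, and without it the slope was 0.076 with p = 0.0937. HNRNPAB, an hnRNP protein of the A/B type, had a slope of 0.039 ± 0.016 (p = 0.0280), and was lost without LY 2 or HY 4 (p = 0.103 without HY 4). SRSF7, an SR protein that shuttles between nucleus and cytoplasm, fell with a slope of -0.043 ± 0.020 (p = 0.0451), and passed in 11 of 21 fits with a cow left out. Thus of the 5 called members, HNRNPL and SF3B3 were those that passed in every such fit.

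**Figure D2:**
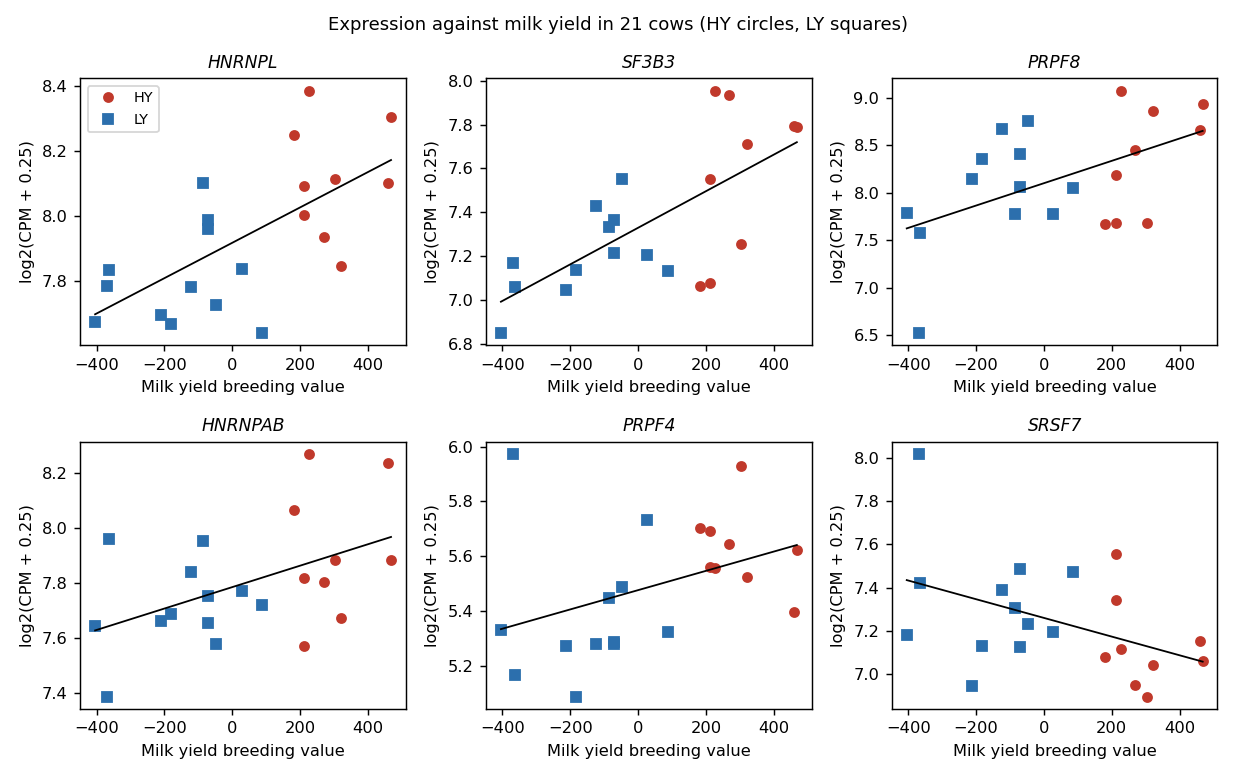
log2(CPM + 0.25) of 6 members against the breeding value of milk yield, 1 point per cow (HY circles, LY squares), with the least squares line. HNRNPL and SF3B3 rise across the cows with overlap between groups, PRPF8 rests partly on LY 2 at the lower left, and SRSF7 has a slope of -0.043.

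No role had more than 2 members called with milk yield. Of 17 hnRNP proteins 2 rose, 0 fell and 14 slopes were positive (median 0.023). Among the 9 SF3A and SF3B subunits, SF3B3 rose and 7 slopes were positive (median 0.030). PRPF factors gave 1 rise and 8 positive slopes of 10 (median 0.026). For SR proteins there was 1 fall and 3 positive slopes of 9 (median -0.012). The Sm proteins gave no call and 3 positive slopes of 8 (median -0.021), and the LSm ring no call and 1 positive slope of 6 (median -0.018). Extremes within the roles were HNRNPK at 0.057 ± 0.028 and HNRNPH1 at -0.044 ± 0.042 among hnRNP proteins. SRSF9 at 0.085 ± 0.061 and SRSF5 at -0.046 ± 0.063 bounded the SR proteins. SF3B1, which grips the branch point helix, had the lowest slope of its complex at -0.032 ± 0.061, beside 0.083 for its partner SF3B3. LSM2 (0.033 ± 0.041) and LSM6 (-0.061 ± 0.059) bounded the LSm ring, SNRPB (0.037 ± 0.044) and SNRPG (-0.039 ± 0.095) the Sm proteins, and PRPF39, a U1-associated factor, was lowest of the PRPF factors at -0.074 ± 0.045. SNRPA (0.037 ± 0.036) and SNRPA1 (-0.033 ± 0.067) bounded the proteins of U1 and U2. LSM12 (0.081 ± 0.069) and LSM1 (-0.018 ± 0.063) bounded the other LSm proteins.

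With parity and lactation period as covariates, 5 members rose with milk yield (HNRNPL, SF3B3, HNRNPAB, PRPF4 and PRPF8) and 0 fell, beside 1.05% and 1.96% of all genes. HNRNPL had the lowest p of the members, with a slope of 0.063 ± 0.012 (SE, n = 21; p = 8.1e-05, adjusted p = 0.7928 by Benjamini-Hochberg over all genes). PRPF4, a protein of the U4 and U6 particle, rose here (0.046 ± 0.019, p = 0.0231) and had a slope of 0.035 ± 0.019 (p = 0.0802) without covariates. PRPF4 was lost without LY 1, HY 8, HY 9 or LY 9, and PRPF8 passed in 6 of 21 fits with a cow left out. The rising count was 3 without HY 4. None of the 5 passed under total-count scaling (HNRNPL 0.027 ± 0.040, SF3B3 0.046 ± 0.054) or with totals that leave out the milk protein genes (0.034 ± 0.022 and 0.053 ± 0.026).

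Taking the yield groups as labels gave a similar picture on the counts. In edgeR's quasi-likelihood test, SRSF9, SF3B3 and HNRNPL were higher in HY than in LY and 0 members were lower, beside 1.52% and 3.19% of all genes. Log2 differences (HY minus LY) were positive for 48 of 67 members, with a median of 0.15, beside 0.024 over all genes. SRSF9, a low-count SR protein, was measured at 5.69 to 22.4 CPM in HY (median 10.3) and at 3.38 to 15.1 CPM in LY (median 6.84), with overlapping ranges. Its log2 difference was 0.77 ± 0.31 (SE; p = 0.0184, edgeR adjusted p = 0.9986). For SF3B3 the log2 difference was 0.39 ± 0.16 (p = 0.0196), and for HNRNPL 0.31 ± 0.14 (p = 0.0311), with the same edgeR adjusted p of 0.9986. Scaling by total counts ended all 3 calls (SRSF9 0.38, p = 0.172, SF3B3 0.27, p = 0.334, HNRNPL 0.14, p = 0.557, edgeR quasi-likelihood). In that scaling SRSF5 was lower in HY (-0.73, p = 0.0367), 26 of 67 differences were positive and the median over all genes was -0.17. Without HY 8 and HY 9, SRSF9 passed no test (p = 0.112). None of these calls held in every fit with a cow left out: SRSF9 was lost without HY 8 (p = 0.0532), SF3B3 without HY 3 (p = 0.0523), and HNRNPL without HY 1, HY 5 or LY 11. Without LY 2, 5 members were higher.

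In the study's mapping statistics, reads of 5 cows (1 HY, 4 LY) stood apart by a higher mapping rate from the other 16. Within these 16 cows, 3 members rose and 0 fell with milk yield, beside 0.891% and 1.54% of all genes, while 0 members differed between HY and LY at an unadjusted p under 0.05. The set of 5 was not fitted on its own. Within HY alone 1 member rose and 2 fell with milk yield (3.44% and 1.48% of all genes), and within LY alone 1 rose and 4 fell (3.22% and 1.74%).

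The second question was how the families relate to lactation period. With days of lactation, 9 members rose, 16 fell and 42 passed no test in simple regression, beside 10.5% and 9.88% of all genes. All 6 measured proteins of the LSm ring fell (LSM2 to LSM7) and so did 4 of 8 Sm proteins (SNRPG, SNRPN, SNRPD2 and SNRPE), with none rising. In contrast, 5 of 17 hnRNP proteins rose (HNRNPA3, HNRNPH3, HNRNPC, HNRNPA2B1 and HNRNPK) and none fell. SR proteins gave no call among 9. Since LSm ring proteins are shared with the cytoplasmic ring in mRNA decay, their fall cannot be assigned to the U6 particle alone. The lists of called members are given in full, so members outside the rule for named genes were added after their values were seen.

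Median slopes, in log2 CPM per 100 days, were -0.46 for the LSm ring, -0.34 for the Sm proteins and 0.064 for the hnRNP proteins, beside 0.031 over all genes and -0.036 over all members. Slopes of all 14 Sm and LSm ring proteins were negative. No member passed an adjusted p of 0.1 in this fit, the lowest being 0.124 (Benjamini-Hochberg over all genes), which was also the lowest of any gene. By edgeR's quasi-likelihood test with the same trait, 10 members passed an adjusted p of 0.1, of which HNRNPH3 rose, while LSM1, LSM2, LSM3, LSM4, LSM6, LSM7, SNRPA1, SNRPG and SNRPN fell, beside 1.91% rising and 4.31% falling of all genes. DESeq2 called 5 rising and 15 falling members at that threshold, beside 6.37% and 7.27%. Huber regression called 0 members there (lowest adjusted p 0.101, SNRPE). The lowest adjusted p of a member was 0.0639 (LSM1) in edgeR and 0.0123 (SNRPG) in DESeq2.

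**Figure D3:**
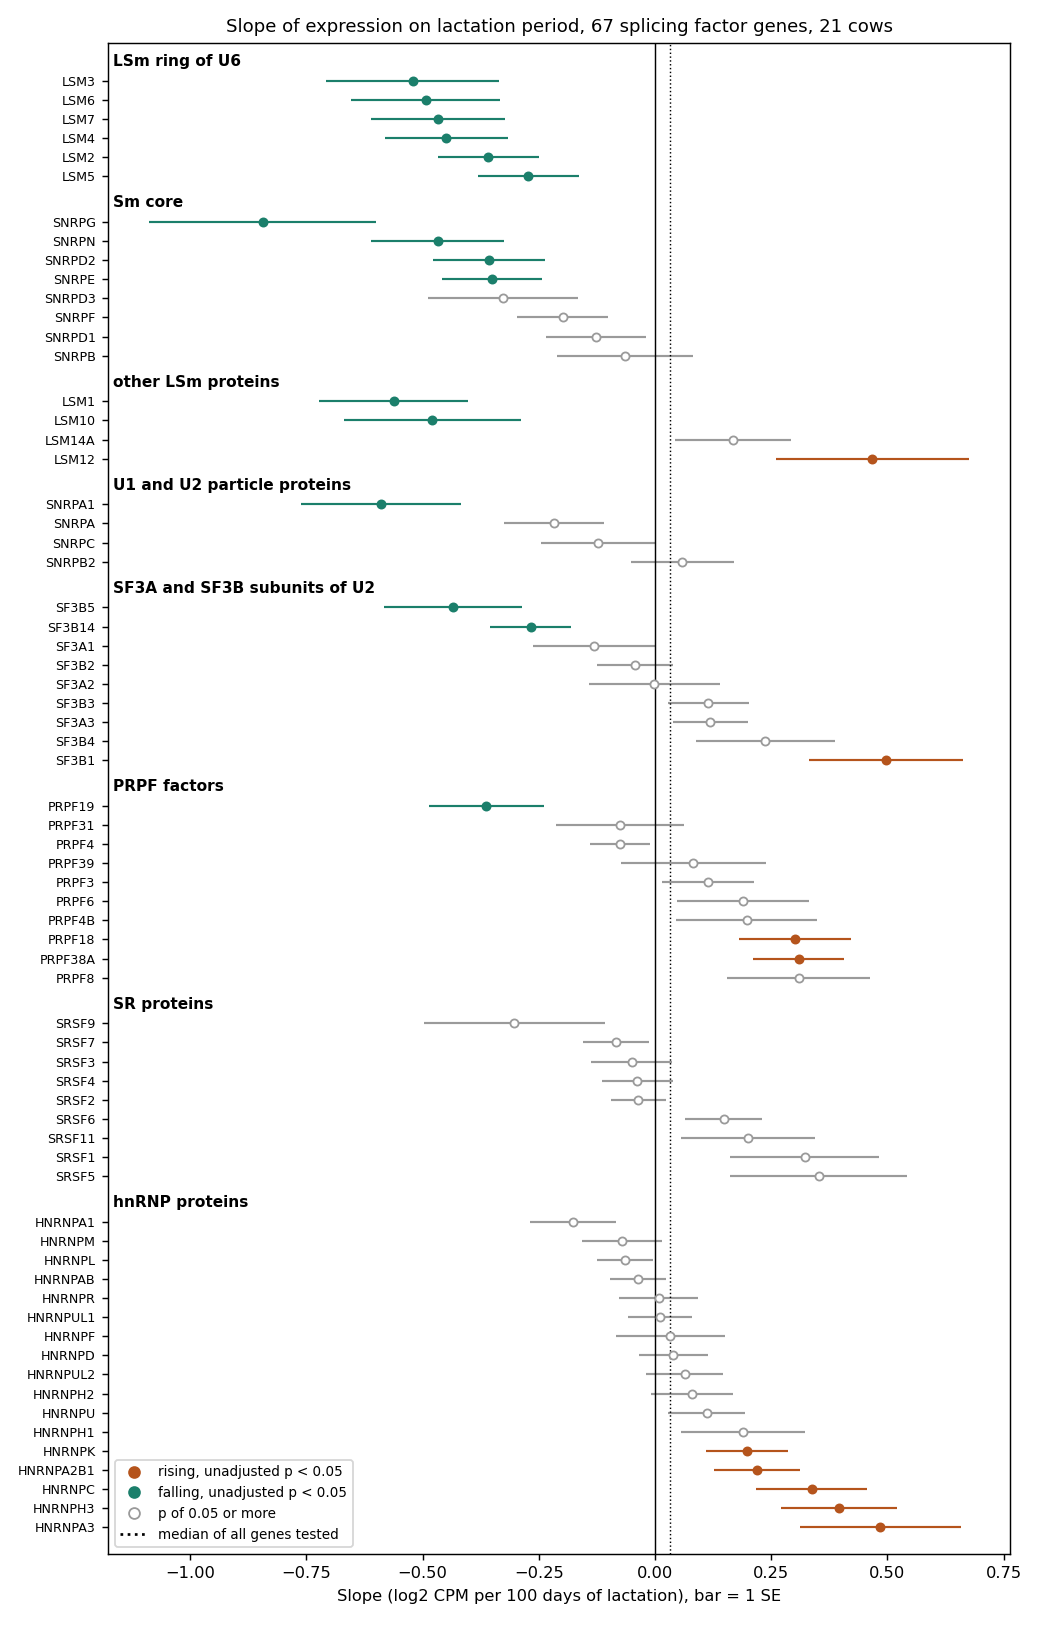
Slope of log2 CPM on lactation period for each of the 67 members, grouped by role, with bars of 1 SE (n = 21 cows). All 6 LSm ring proteins and 4 of 8 Sm proteins fell at an unadjusted p under 0.05, 5 hnRNP proteins rose, and the dotted line marks the median of all genes (0.031).

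To show the levels, the cows are given as the 7 earliest (41 to 102 days) and the 7 latest (224 to 270 days). In no member were these sets without overlap, beside 0.178% of all genes lower and 0.154% higher in every late cow. The summed level of all members was 7763 to 10600 CPM in the earliest cows (median 9079) and 9084 to 11530 CPM in the latest (median 10390). In this sum, which is weighted to members with many counts, all 7 latest cows lay above the early median. The negative median slope over the members is therefore not a fall of their summed level. LSM4 was measured at 41.3 to 97.8 CPM in the earliest cows (median 58.2) and at 27.0 to 56.7 CPM in the latest (median 34.4). All 7 latest cows lay below the median of the earliest. Its slope was -0.45 ± 0.13 (SE, n = 21) log2 CPM per 100 days (p = 0.00291), and it passed in each of 21 fits with a cow left out (highest p = 0.0115, without LY 2).

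LSM2 was at 18.8 to 42.6 CPM early (median 25.5) and at 14.3 to 24.3 CPM late (median 16.3), with a slope of -0.36 ± 0.11 (p = 0.00369). LSM7 (-0.47 ± 0.14, p = 0.00435) and LSM6 (-0.49 ± 0.16, p = 0.00631) had slopes near to it. LSM3 and LSM5 were the ends of the ring, at -0.52 ± 0.19 and -0.27 ± 0.11. LSM5 alone of the ring was lost when a cow was left out (without HY 6, HY 8 or LY 7, highest p = 0.0612). The high values were not only early, since LY 4 at 167 days had LSM4 near the highest level.

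SNRPG, the Sm protein with the steepest slope of all members, was at 8.61 to 48.1 CPM in the earliest cows (median 16.9) and at 3.80 to 11.5 CPM in the latest (median 6.07). The median late level was 0.360 of the early one. Its slope was -0.84 ± 0.24 (SE, n = 21; p = 0.00263), with HY 8 the highest cow and HY 2, at 168 days, the lowest. SNRPN, a copy of SNRPB known from neural tissue, fell at -0.47 ± 0.14 (p = 0.00411), while SNRPB itself had a slope of -0.064 ± 0.15. SNRPE (-0.35 ± 0.11, p = 0.00398) and SNRPD2 (-0.36 ± 0.12, p = 0.00787) fell too. All 4 of these Sm proteins passed in every fit with a cow left out.

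SNRPA1, a protein of the U2 particle, fell at -0.59 ± 0.17 (p = 0.00290), with 16.2 to 69.5 CPM early (median 28.7) and 12.8 to 20.5 CPM late (median 18.8). Here the late cows formed a narrow band and the early ones spread widely. SNRPA of the U1 particle had a slope of -0.22 ± 0.11 (p = 0.0590). Among the other LSm proteins, LSM1 fell at -0.56 ± 0.16 (p = 0.00230), from 20.9 to 75.2 CPM early (median 28.7) to 13.3 to 27.6 CPM late (median 17.0). LSM10 also fell, but not without HY 8 (p = 0.0626), and LSM12 rose, at 0.47 ± 0.21 (p = 0.0362), and was lost without LY 2, HY 4 or HY 8.

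**Figure D4:**
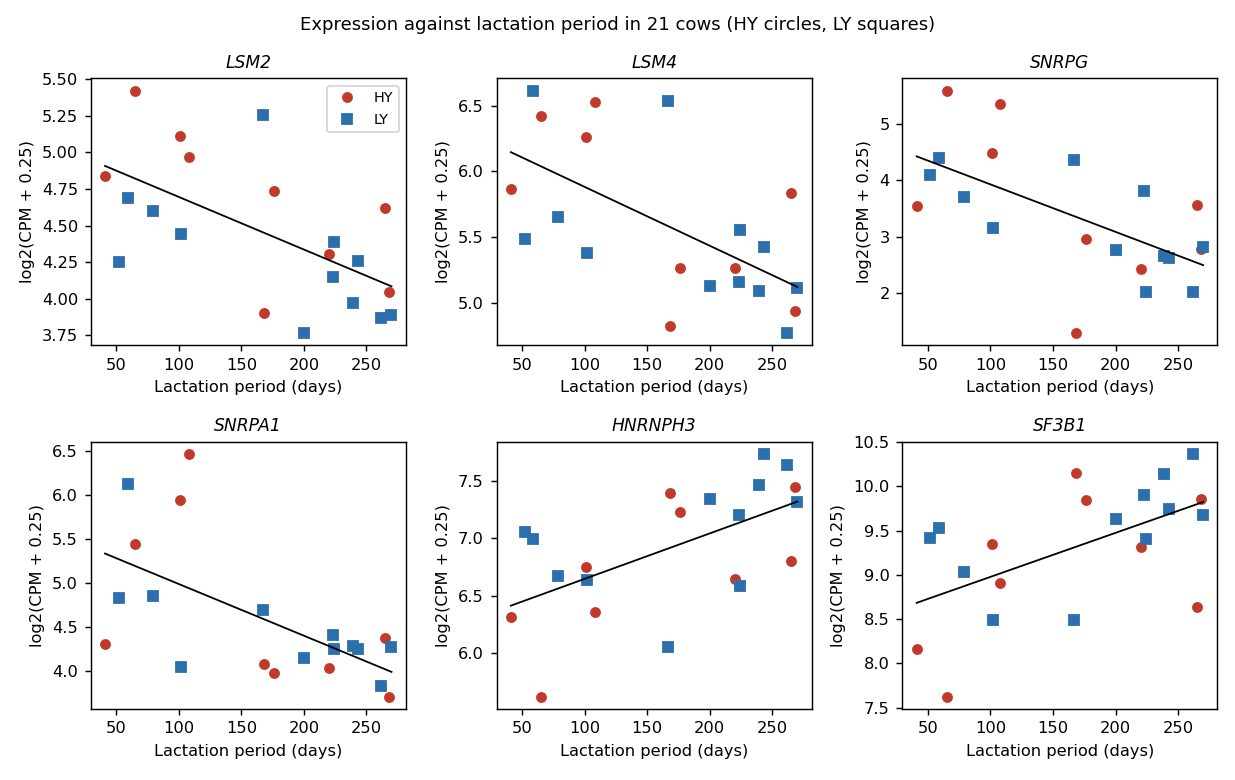
log2(CPM + 0.25) of 6 members against days of lactation, 1 point per cow (HY circles, LY squares), with the least squares line. LSM2, LSM4, SNRPG and SNRPA1 fall, HNRNPH3 and SF3B1 rise, and LY 4 at 167 days lies with the early cows in LSM2, LSM4, SNRPG and HNRNPH3.

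Of the 9 SF3A and SF3B subunits 1 rose, 2 fell and 6 passed no test, beside 10.5% and 9.88% of all genes. SF3B1 rose at 0.50 ± 0.17 (SE, n = 21; p = 0.00732), from 197 to 737 CPM early (median 523) to 396 to 1320 CPM late (median 858). SF3B14, which contacts the branch point adenosine, fell at -0.27 ± 0.087 (p = 0.00601), as did SF3B5, a small subunit (-0.44 ± 0.15, p = 0.00851). SF3B3 had a slope of 0.11 ± 0.087 (p = 0.204). Among PRPF factors, PRPF38A (0.31 ± 0.099, p = 0.00546) and PRPF18 (0.30 ± 0.12, p = 0.0226, lost without HY 8) rose, while PRPF19, a ubiquitin ligase of the active spliceosome, fell (-0.36 ± 0.12, p = 0.00844).

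HNRNPH3, which binds G-rich RNA, had the lowest p of the rising members, at 0.40 ± 0.13 log2 CPM per 100 days (SE, n = 21; p = 0.00517). It was at 49.0 to 132 CPM in the earliest cows (median 102) and at 95.7 to 212 CPM in the latest (median 174), and 6 of 7 late cows lay above the early median. HNRNPA3 (0.48 ± 0.17) and HNRNPC (0.34 ± 0.12), a binder of uridine tracts, rose in every fit with a cow left out, whereas HNRNPA2B1 was lost without HY 1, HY 8 or LY 7, and HNRNPK without HY 3, HY 4, HY 5, HY 8 or LY 7. Over the rising members, 5 of 9 passed in all 21 such fits, and over the falling members 14 of 16. The rising count was 5 without HY 8.

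Counts within a library need no scaling between cows, but a ratio moves with both of its parts. The hnRNP sum had a median of 4612 CPM in the earliest cows and 5123 CPM in the latest. Per 100 hnRNP counts, the LSm ring had 4.22 to 11.7 counts in the 7 earliest cows (median 5.54) and 2.15 to 4.48 in the 7 latest (median 3.32). The 2 sets overlapped only between HY 1, LY 5 and the late cow HY 4. The highest ratio was that of HY 8, which had the lowest hnRNP sum (3564 CPM). LY 4 at 167 days followed at 8.72, with the lowest hnRNP sum of LY (3630 CPM). The highest LSm ring sum was in LY 2 (460 CPM). For the Sm proteins the ratio was 7.56 to 19.7 early (median 9.97) and 4.37 to 12.3 late (median 6.48), with more overlap. SR proteins gave 23.0 to 33.6 early and 22.5 to 46.3 late (medians 29.7 and 30.3). By yield group the SR ratio was 22.5 to 31.3 in HY (median 27.5) and 26.7 to 46.3 in LY (median 31.6), with overlap. The upper end of 46.3 was LY 10 alone, followed by LY 11 at 37.8. LY 10 was also the highest cow for SRSF1 (800 CPM) and SRSF5 (876 CPM). These ratios are descriptions with no test.

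**Figure D5:**
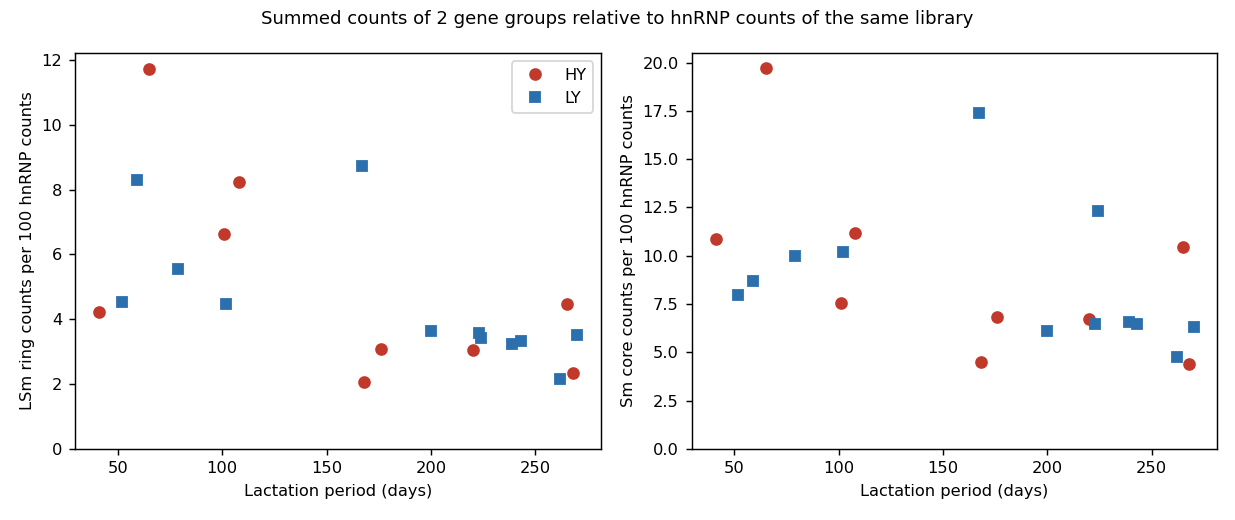
Summed counts of the LSm ring of U6 (left) and of the Sm proteins (right) per 100 hnRNP counts of the same library against days of lactation, 1 point per cow (HY circles, LY squares). On the left the 7 latest cows lie between 2.15 and 4.48 and the 7 earliest between 4.22 and 11.7, with HY 8 highest.

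Under total-count scaling, 15 members rose and 6 fell with lactation period, beside 15.2% and 2.76% of all genes, and the median slope of all genes moved from 0.031 to 0.16. Relative to that median, the LSm ring lay at -0.41, the Sm proteins at -0.29 and the hnRNP proteins at 0.11, compared with -0.49, -0.37 and 0.032 under TMM. All 25 called members kept the sign of their slope under every alternative run. Without HY 8 and HY 9, 5 members rose and 13 fell, beside 5.28% and 5.3% of all genes, and 4 of 6 LSm ring proteins and 4 of 8 Sm proteins fell. Within the 16 cows of lower mapping rate 11 rose and 13 fell (10.4% and 7.92%). Within LY alone 2 rose and 10 fell (4.33% and 4.36%), 4 of the 10 being of the LSm ring. Within HY alone 1 rose and 3 fell (2.11% and 2.52%). Median slopes of the LSm ring were -0.43 within LY and -0.45 within HY.

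Marker genes of some cell types also rose with lactation period at an unadjusted p under 0.05. Of 10 T cell markers, 5 rose and 0 fell, beside 10.5% and 9.88% of all genes. Their median slope was 0.78 log2 CPM per 100 days. Their summed level was 122 to 649 CPM in the earliest cows and 270 to 1361 CPM in the latest, and all 10 slopes were positive. With the T cell markers as a covariate, 7 members rose and 11 fell, beside 3.68% and 4.52% of all genes, and 3 of 6 LSm ring proteins fell. The 7 milk protein genes had a median slope of -0.61 with no call, the 10 macrophage markers -0.034 with no call, and 12 epithelial markers -0.32 with no call. Of 9 counted neutrophil markers 2 rose, of the leukocyte markers 2 of 5, of the proliferation genes 2 of 7 and of the B cell markers 0 of 4. Beside the 10.5% of all genes that rose, 2 calls in lists this short say little. No marker of these lists was called with milk yield in simple regression, and between HY and LY 1 neutrophil, 1 B cell and 1 epithelial marker were lower in HY. All 7 milk protein slopes on milk yield were negative (median -0.29), as were all 12 epithelial slopes (median -0.13), while the median over the members was 0.013. Between HY and LY the 7 milk protein genes had positive log2 differences (median 1.06), with no call. Their summed level nevertheless had a lower median in HY (37600 CPM) than in LY (103500 CPM). Its mean log2 level was lower in HY too (15.5 against 16.4), and HY 8 was the highest cow. For the T cell markers the median log2 difference was -0.44. Reads on no gene, without those aligned to several places, were 13.0 to 31.9% of reads. This percent had a Pearson r of 0.477 with lactation period over 21 cows (permutation p = 0.0265) and a Spearman rho of 0.431 (permutation p = 0.0522). Adjusted over 8 such relations these were 0.212 and 0.418. Without HY 8 and LY 7, the cows with the lowest and the highest percent of reads on no gene, r was 0.330. In the 16 cows of lower mapping rate it was 0.576. With the milk protein genes or the neutrophil markers as a covariate, all 9 rising and all 16 falling members kept their call. The part of reads on no gene and of the other marker lists in the slopes of the members was not tested.

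With milk yield and parity as covariates, 8 members rose and 19 fell with lactation period, beside 10.1% and 9.38% of all genes. All 6 LSm ring proteins and 5 of 8 Sm proteins fell. Under total-count scaling 16 rose and 4 fell, and the median slope of all genes was 0.19. With the T cell markers as a further covariate, 3 of the 8 rising and 9 of the 19 falling members kept their call. HNRNPL was among the falling members (-0.11 ± 0.040 log2 CPM per 100 days, p = 0.0101), where its simple slope was -0.065 ± 0.060 (p = 0.292). No member passed an adjusted p of 0.1 in this fit. By edgeR's quasi-likelihood test 1 rose and 8 fell at that threshold, beside 0.989% and 2.36% of all genes, and by DESeq2 5 rose and 15 fell, beside 5.8% and 6.69%. Huber regression called 0 members there (lowest adjusted p 0.123, LSM2). The HNRNPL call was lost without HY 1, LY 2 or LY 10, and under total-count scaling the slope was 0.13 (p = 0.349). Without HY 8 the rising count was 4, and without LY 7 it was 5. Without HY 8 and HY 9, 3 members rose and 10 fell. The counts under total-count scaling, with the T cell markers and without HY 8 and HY 9 stand here without shares of all genes. In simple regression those shares were 15.2% rising and 2.76% falling, 3.68% and 4.52%, and 5.28% and 5.3%, in that order.

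The lactation slope differed between HY and LY in 1 member, HNRNPK (product term, unadjusted p under 0.05), beside 0.641% of all genes in each direction. HNRNPK, a binder of C-rich RNA, had a slope of 0.41 ± 0.12 (SE) within HY and 0.087 ± 0.097 within LY. The difference was 0.35 ± 0.14 log2 CPM per 100 days (p = 0.0281, adjusted p = 0.9999 by Benjamini-Hochberg over all genes). It was lost without LY 2, HY 3, HY 8, HY 9 or LY 9, and the count of such members was 4 without HY 1. Under total-count scaling the difference was 0.61 (p = 0.0627), and SNRPE was the member called instead (0.58, p = 0.0231). Without HY 8 and HY 9 the difference was 0.23 (p = 0.176), and in the 16 cows of lower mapping rate p was 0.114.

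The 15 pairs within the LSm ring had correlations of log2 CPM from 0.392 to 0.911 (median 0.723) over 21 cows. Pairs within the Sm proteins (28) ran from -0.464 to 0.860 (median 0.420), and the 48 pairs of an Sm with an LSm ring protein from -0.273 to 0.924 (median 0.572). For pairs of an LSm ring protein with another role the median was 0.389 with U1 and U2 proteins, 0.176 with other LSm proteins, -0.105 with SF3A and SF3B subunits, -0.027 with SR proteins, -0.216 with hnRNP proteins and -0.343 with PRPF factors. Pairs among the PRPF factors had a median of 0.016. The genes share libraries and scaling, so these are descriptions.

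Genes whose levels across the 21 cows were most like HNRNPL were EIF3L (r = 0.785), OXA1L (0.782), SLC1A4 (0.773), CERS5 (0.742) and RPN1 (0.739), and the closest member was HNRNPAB (0.689). For SF3B3 they were CHD4 (0.859), FAM53C (0.824), the spliceosomal helicase DHX8 (0.793), USP4 (0.778) and ELMO1 (0.775), and the closest member was PRPF8 (0.714). HNRNPL and SF3B3 were less alike, with r = 0.507.

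Other genes of the pathway were counted in the same way. Of 65 further core spliceosome genes, 3 rose and 0 fell with milk yield (DHX8 at 0.12 ± 0.046, AQR at 0.11 ± 0.052 and SNRNP200 at 0.098 ± 0.046), beside the 0.859% and 1.63% of all genes. DHX8 releases the spliced mRNA, and SNRNP200 unwinds the U4 and U6 RNAs. With lactation period, 10 rose and 10 fell, beside 10.5% and 9.88% of all genes. TXNL4A, a small protein of the U5 particle, fell (-0.35 ± 0.082, p = 0.000421), as did PPIH (-0.40 ± 0.13, p = 0.00569), while SNW1 rose (0.40 ± 0.13, p = 0.00516). Of 36 splicing regulators and their kinases, none was called with milk yield, and the slopes of NONO and RBMX were 0.053 ± 0.033 and 0.067 ± 0.041. With lactation period 11 rose and 2 fell, beside the same shares of all genes. PTBP2, a repressor of exons, rose (0.85 ± 0.22, p = 0.00107) and so did PSPC1 (0.21 ± 0.066, p = 0.00608), while ELAVL1, which stabilizes AU-rich mRNA, fell (-0.29 ± 0.077, p = 0.00146).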

How the data were processed

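RNA of milk somatic cells of 21 cows was sequenced on an Illumina platform. Per the labels and the study's methods, the authors trimmed reads with Trimmomatic, mapped them to bosTau7 with Bowtie2 within TopHat2 and SAMtools, and deposited raw counts per gene from HTSeq. Versions, counting mode and strand were not given in the sources used here. Rows naming no gene held 35.5 to 56.5% of reads and were left out. Counts were scaled to CPM with TMM factors (edgeR 4.0.16) and transformed as log2(CPM + 0.25). Ordinary least squares was fitted for all 12334 genes with a count (R 4.3.3), with a two-sided t test of each slope and Benjamini-Hochberg adjustment. HY and LY were compared with edgeR's quasi-likelihood test. DESeq2 1.42.0 and Huber regression (MASS 7.3.60.0.1) were alternatives. Scripts were tested on simulated data. Each library is 1 cow, and no 2 libraries agreed within sampling noise (lowest chi-square per degree of freedom 38.0).

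Members and gene lists were chosen with earlier results of these data known. Named genes were HNRNPL, SF3B3, up to 10 members of lowest p in each fit, and the extremes of each role in yield slope. The earliest and latest cows, the totals without milk protein genes and the fits without HY 8 and HY 9 were chosen after seeing the data. Replicate numbers follow the order of the samples and name them only. Slopes are per 100 units of breeding value or per 100 days. 1 gene of the regulator list is not reported here.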

Additional observations from a re-analysis of the deposited data

Results flagged for a closer look

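The lactation slope of HNRNPK was higher in HY than in LY by 0.3452 log2 CPM per 100 days, by the product term of the fit (p = 0.0281, adjusted p = 0.9999 by Benjamini-Hochberg over all genes). Under total-count scaling the difference was 0.61 and passed no test (p = 0.0627). The slope was positive within both groups, 0.41 ± 0.12 (SE, n = 9) and 0.087 ± 0.097 (SE, n = 12). HY 3 was the highest cow for HNRNPK (1041 CPM), and without it the product term had p = 0.157. The call was also lost without LY 2, HY 8, HY 9 or LY 9. By the rule used for flagging, none of 29 named members had a single HY cow far apart from the others. LY, with 12 cows, was not tested in that way.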

How the results depend on the processing

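No paired analysis was possible because each cow is in 1 group only and the replicate numbers are not in the labels. Milk yield, simple regression (4 rising, 1 falling) gave 0 and 0 with total counts, 1 and 2 within HY, 1 and 4 within LY, 1 and 2 with totals that leave out milk protein genes, 7 rising without HY 8 and HY 9, 8 rising without them under total counts, and 0 falling within the 16 cows of lower mapping rate, with that set or neutrophil markers as covariate, in edgeR and in Huber regression. Milk yield, multiple regression (5 and 0) gave 0 and 1 with total counts, 0 and 2 with totals that leave out milk protein genes, and 3 rising within the 16 cows, in edgeR and without HY 8 and HY 9 under total counts. Lactation period, simple regression (9 and 16) gave 15 and 6 with total counts, 1 and 3 within HY, 2 and 10 within LY, 5 rising without HY 8 and HY 9, and 4 and 6 without them under total counts. Lactation period, multiple regression (8 and 19) gave 16 and 4 with total counts, 4 and 9 with T cell markers, 3 and 10 without HY 8 and HY 9, and 3 and 5 without them under total counts. The product term (1 and 0) gave 0 rising within the 16 cows, with totals that leave out milk protein genes and without HY 8 and HY 9 under total counts. HY against LY (3 and 0) gave 0 higher within the 16 cows, 0 and 1 with total counts, and 5 higher without HY 8 and HY 9. In the simple regressions the share of all genes called also moved under several of these settings. The cause was not tested.

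With 1 cow left out, members rising and falling ranged from 3 to 7 and 0 to 2 (milk yield, simple), 3 to 7 and 0 to 1 (multiple), 5 to 12 and 14 to 19 (lactation, simple), 4 to 12 and 13 to 22 (multiple), 0 to 4 and 0 to 1 (product term), and 2 to 5 higher and 0 to 1 lower (HY against LY). In the simple and multiple regressions, among the called members, HNRNPL and SF3B3, slopes turned for HNRNPL with milk yield within HY (-0.0083), with lactation under total counts (0.14, and 0.037 without HY 8 and HY 9), within LY (0.0082) and in multiple regression under total counts (0.13), for SNRPF there (0.035), and for SF3B3 in multiple regression with T cell markers (-0.027) and without HY 8 and HY 9 (-0.019). None of these passed a test. Among slopes of named members, 366 values under alternatives were weaker and 2173 kept their direction and their side of the threshold. Depth limited mainly LSM12, LSM10, SNRPE and SRSF9.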
